A study of Mus musculus with 6 samples.

Results

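The RhoGAP and RhoGEF genes were examined in the hippocampus of mice that lack the maternal *Ube3a* allele. The members were the gene symbols built from Arhgap or Arhgef, a number and, in some, a final l, which gave 58 of the 25239 symbols in the counts, 33 of them RhoGAP and 25 RhoGEF genes. The 5 other symbols that start with Arhgap, *Arhgap11a* and 4 opposite-strand transcripts, were outside this pattern. RNA sequencing had been done on the hippocampus of 3 WT (Ube3am+/p+) and 3 Ube3am-/p+ male C57BL/6 mice, 6 to 8 weeks old and untreated, and each mouse gave 1 library. The Ube3am-/p+ mice, a model of Angelman syndrome, have a null allele from the mother and an intact allele from the father. The paternal allele is silent in most neurons but active in glia and other cells, so that whole hippocampus still holds *Ube3a* mRNA.

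Small GTPases such as RHOA, RAC1 and CDC42 are molecular switches of the actin cytoskeleton, active with GTP bound and inactive with GDP. RhoGEFs switch them on by exchanging GDP for GTP, and RhoGAPs switch them off by speeding up GTP hydrolysis. In neurons the balance between both families shapes axon growth, dendritic spines and the scaffolds of synapses. UBE3A is a ubiquitin ligase, and ephexin-5, the product of *Arhgef15*, has been described as a protein that UBE3A marks for degradation. The study itself named *Arhgap5* among the retinoic acid-related genes that it reported as lower in Ube3am-/p+ hippocampus, by RNA sequencing and by RT-qPCR. Its stated threshold for RNA sequencing was P below 0.05 with a fold change above 1.2, while the calls here require an adjusted p below 0.05.

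Between 7293272 and 11314409 counts per library lay on genes, and the members held 0.486% to 0.513% of them. Values are given as CPM, the share of a library's gene counts that a gene holds, scaled so that each library has the same total. The targeted gene, *Ube3a*, had 104, 141 and 151 CPM in WT mice 1, 2 and 3 and 96.8, 82.9 and 80.6 CPM in Ube3am-/p+ mice 1, 2 and 3, so every value followed its label (log2 fold change -0.58, SE 0.12, adjusted p = 0.0363, edgeR). Its call was lost when each library was corrected for GC content and transcript length, at a log2 fold change of -0.20 (SE 0.08, adjusted p = 0.240, edgeR). With a block on replicate numbers the log2 fold change was -0.57 (adjusted p = 0.216, edgeR). As 0 of all genes were called with that block, the lost call says nothing of *Ube3a*. WT mouse 1 and Ube3am-/p+ mouse 1 were the libraries closest to each other across the genotypes, at a chi-square over genes of 3.78 per degree of freedom, against 21 for the most distant pair. All 8 markers of hippocampal neurons were detected, with 1430 to 1540 summed CPM in WT mice and 1290 to 1450 in Ube3am-/p+ mice. The markers of choroid plexus, a tissue next to the hippocampus, differed widely within both genotypes, with 102 to 2190 and 107 to 2270 summed CPM. The summed markers of meninges lay between 90.6 and 149 CPM in WT mice and between 95.6 and 177 CPM in Ube3am-/p+ mice. The part of these and of other cell types in the members' values was not tested. In bulk tissue, fewer cells of a type and less RNA per cell cannot be told apart.

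No member was differentially expressed between Ube3am-/p+ and WT mice. After the filter on low counts 51 members could be tested, 30 RhoGAP and 21 RhoGEF genes, and 0 of them reached an adjusted p below 0.05 with a fold change above 1.2 (edgeR quasi-likelihood test, Benjamini-Hochberg adjustment over 14445 genes). Of all genes tested 2.01% did so, 1.02% as higher and 0.99% as lower in Ube3am-/p+ mice. The adjusted p of the members lay between 0.0797 and 0.975. At an unadjusted p below 0.05 there were 9 members (17.6%), against 24.6% of all genes. The 4 that were higher in Ube3am-/p+ mice were *Arhgap22*, *Arhgef10l*, *Arhgef19* and *Arhgef25*, beside 12.2% of all genes in that direction. The 5 that were lower were *Arhgap5*, *Arhgap12*, *Arhgap24*, *Arhgef6* and *Arhgef26*, beside 12.4% of all genes. The 3 values of each genotype did not overlap in 9 members (17.6%), against 25.0% of all genes. These were 5 with higher values in Ube3am-/p+ mice (10.8% of all genes) and 4 with lower values (14.2% of all genes). The members were thus called no more often than genes in general by each of these rules.

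The log2 fold changes ran from -0.49 for *Arhgap24* to 0.65 for *Arhgap22*, with a median of -0.03 over the 30 RhoGAP genes, 0.04 over the 21 RhoGEF genes and 0.00 over all genes. The members divided almost evenly, with 26 above 0 and 25 below. The count of called members depended on which mice were in the comparison. Without WT mouse 1 it was 7 (17.6% of all genes were called), without Ube3am-/p+ mouse 1 it was 6 (12.5% of all genes), and without both mice numbered 1 it was 13 of 53 (28.3% of all genes). *Arhgap5*, *Arhgef25* and *Arhgef6* were called in each of these 3 comparisons. With any 1 of the other 4 mice left out 0 members were called, and as only 0 to 2 of all genes were, those comparisons say nothing of the members. The members without overlap numbered 19 without WT mouse 1 and 20 without Ube3am-/p+ mouse 1, where 50.1% and 47.6% of all genes did not overlap. DESeq2 called *Arhgap5* alone (8.58% of all genes), with 8 members at an unadjusted p below 0.05, and edgeR without a filter on low counts called *Arhgap5* and *Arhgef25* (6.1% of all genes).

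Mean hippocampal levels of the tested members ran from 0.288 CPM per kb for *Arhgap36* to 169 CPM per kb for *Arhgef25*. The members left out of the test, with 2 to 70 counts in the 6 libraries, are not part of this range. Per kb of the longest annotated transcript, the RhoGEF gene *Arhgef25* stood highest, with a mean of 169 CPM per kb over the 6 mice and a range of 140 to 215. It encodes GEFT, a RHOA exchange factor that acts downstream of Gq-coupled receptors. *Arhgef2* (GEF-H1, a microtubule-bound RHOA exchange factor) and *Arhgef4* (ASEF, a partner of APC) had 49.6 and 48.7 CPM per kb, with ranges that overlapped. *Arhgef17* had 38.4 CPM per kb. Among the RhoGAP genes the highest were *Arhgap39* with 45.3, *Arhgap44* with 40.1, *Arhgap21* with 38.8, *Arhgap23* with 33.1 and *Arhgap33* with 30.8 CPM per kb, and each range overlapped that of its neighbour in this order.

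**Figure D1:**
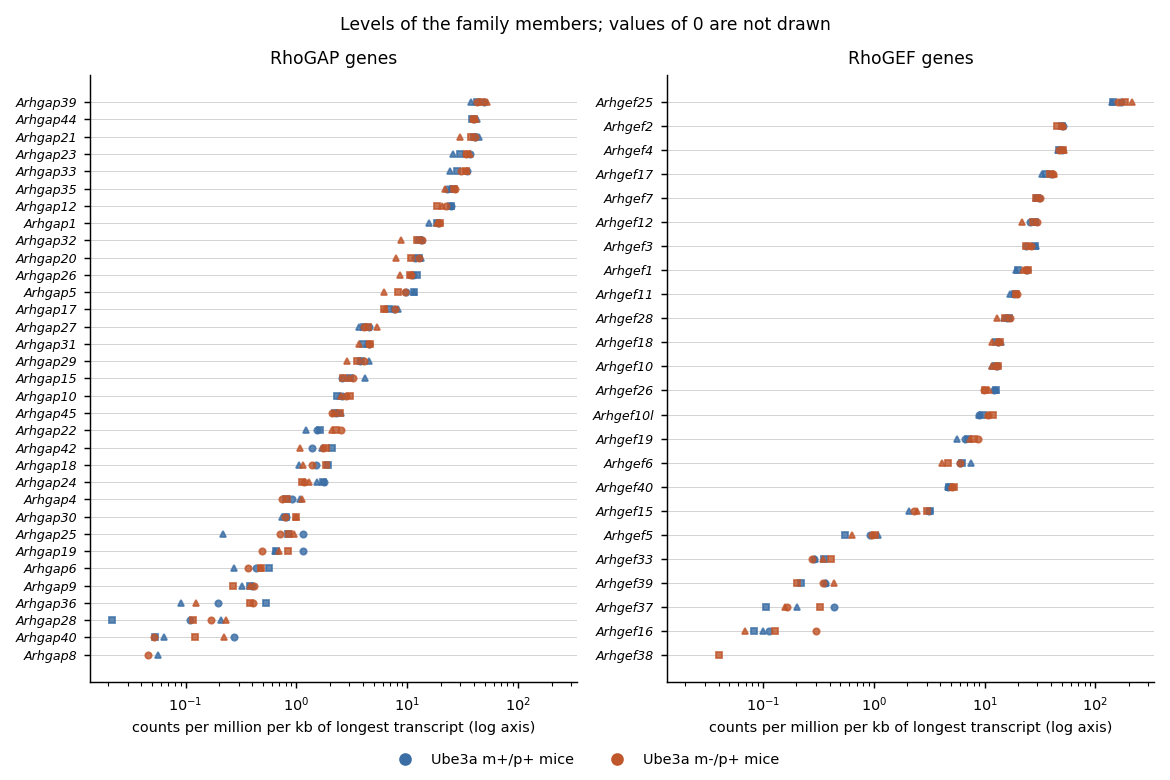
Level of 33 RhoGAP and 24 RhoGEF genes in each mouse, in CPM per kb of the longest annotated transcript on a log axis, with the genes ordered by their mean (blue, WT; orange, Ube3am-/p+; circles, squares and triangles, mice 1, 2 and 3). *Arhgef25* stands at the top of the RhoGEF genes with a mean of 169 and *Arhgap39* at the top of the RhoGAP genes with 45.3, and for most genes the values of the genotypes overlap.

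The p190 RhoGAPs are a pair of closely related proteins that act mainly on RHOA, encoded by *Arhgap5* (p190B) and *Arhgap35* (p190A). *Arhgap5* lies on chromosome 12 (chr12:52503972-52571975, plus strand, GRCm38) and *Arhgap35* on chromosome 7 (chr7:16493719-16614993, minus strand). The stretch printed here is the product of the RT-qPCR primers for *Arhgap5*, shown because it is the part of the gene that was also measured by RT-qPCR. Its 202 bases lie within exon 2, in coding sequence, at chr12:52516427-52516628 on the plus strand, and the capitals mark the primer sites. The most similar stretch of *Arhgap35*, also in exon 2 and coding, lies at chr7:16564755-16564956 on the minus strand, and its capitals mark the 68 bases that differ. The sequences are those of the GENCODE M21 transcripts.
*Arhgap5*: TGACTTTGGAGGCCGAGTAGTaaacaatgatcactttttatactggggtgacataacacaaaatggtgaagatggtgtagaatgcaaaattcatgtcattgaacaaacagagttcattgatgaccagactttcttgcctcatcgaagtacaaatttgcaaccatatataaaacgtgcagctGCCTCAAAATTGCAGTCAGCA
*Arhgap35*: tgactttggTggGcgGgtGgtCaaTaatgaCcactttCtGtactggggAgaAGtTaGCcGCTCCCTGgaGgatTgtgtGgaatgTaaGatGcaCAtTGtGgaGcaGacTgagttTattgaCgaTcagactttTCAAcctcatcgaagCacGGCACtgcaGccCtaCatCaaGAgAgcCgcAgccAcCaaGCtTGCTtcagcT
The stretches are 66.3% identical, with a GC content of 38.6% in *Arhgap5* and 51% in *Arhgap35*. At 39 of the differing positions *Arhgap35* has G or C where *Arhgap5* has A or T, and at 14 the reverse holds. The same difference runs through the whole transcripts, with 33.9% GC in *Arhgap5*, the lowest of the tested members, and 50.6% in *Arhgap35*.

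*Arhgap5* had 89.9, 106 and 106 CPM in WT mice 1, 2 and 3 and 89.2, 77.5 and 57.7 CPM in Ube3am-/p+ mice 1, 2 and 3. Every Ube3am-/p+ value was below every WT value, but the mice numbered 1 were nearly level, and the lowest value belonged to Ube3am-/p+ mouse 3. The means were 101 ± 9.35 CPM (SD, n = 3) and 74.8 ± 15.9 CPM (SD, n = 3). The log2 fold change was -0.41 (SE 0.13, unadjusted p = 0.00627, adjusted p = 0.0797, edgeR). As counted, *Arhgap5* thus met the study's stated threshold, P below 0.05 with a fold change above 1.2, if that P was unadjusted. An unadjusted p below 0.05 was reached by 24.6% of all genes. The exact two-sided permutation p was 0.1, which no comparison of 3 with 3 mice can undercut. When single mice were left out the log2 fold change lay between -0.54 and -0.26 (adjusted p between 0.0117 and 0.311, edgeR). When each library was corrected for the GC content and length of the transcripts, it was 0.03 (SE 0.08, adjusted p = 0.913, edgeR). *Arhgap35* had 209, 236 and 224 CPM in WT mice 1, 2 and 3 and 246, 240 and 201 CPM in Ube3am-/p+ mice 1, 2 and 3, and the genotypes overlapped (log2 fold change 0.05, adjusted p = 0.750, edgeR). The ratio of *Arhgap35* to *Arhgap5* counts within a mouse was 2.33, 2.22 and 2.12 in mice 1, 2 and 3 of the WT genotype, against 2.75, 3.09 and 3.49 in the Ube3am-/p+ mice. It was higher in every Ube3am-/p+ mouse, by 0.48 on the log2 scale, and after the correction the log2 fold changes of the pair differed by 0.04.

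**Figure D2:**
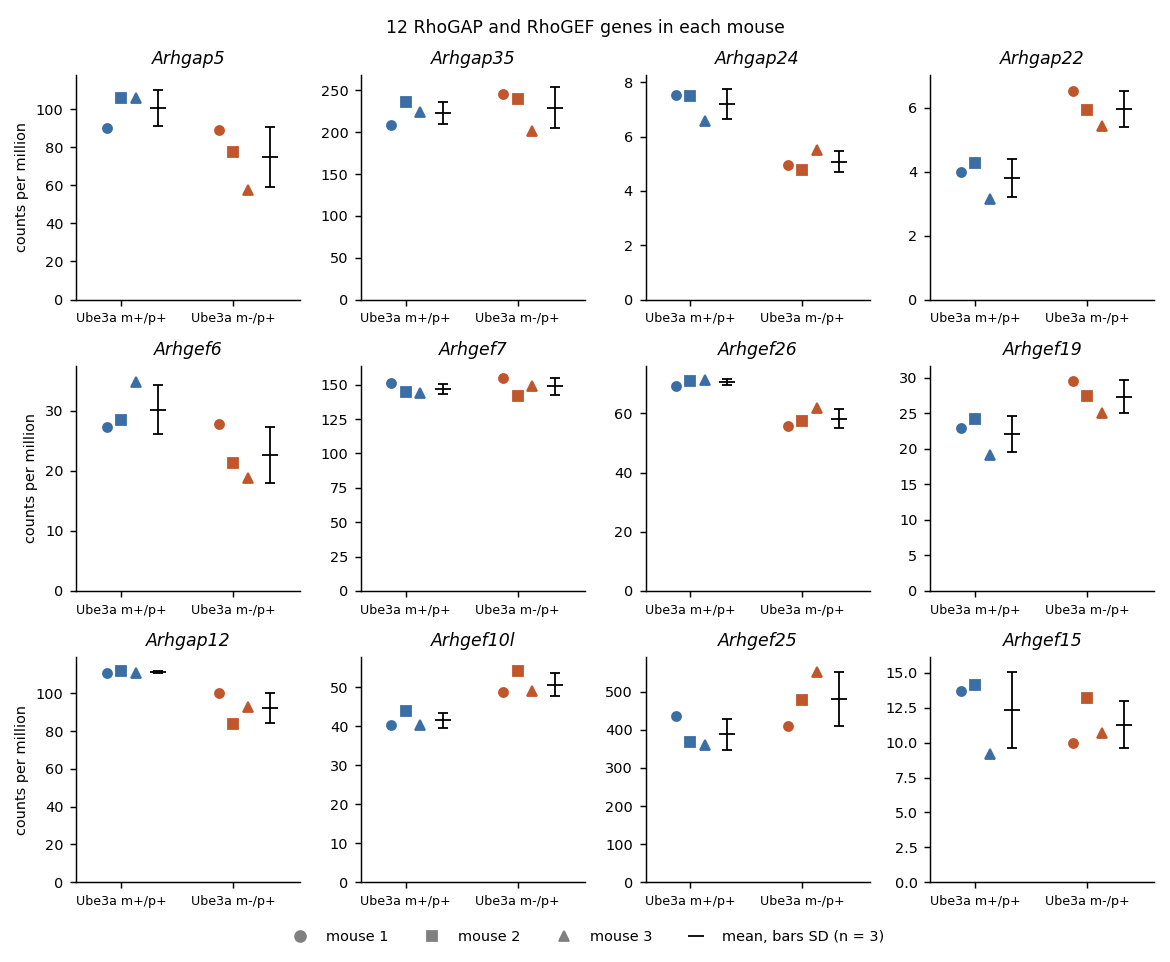
Expression of 12 RhoGAP and RhoGEF genes in CPM (vertical axes from 0) in each WT and Ube3am-/p+ mouse, with the mean and SD of 3 mice in black. *Arhgap5* has nearly equal values in the mice numbered 1 (89.9 and 89.2 CPM), and the values of *Arhgap24*, *Arhgap22*, *Arhgef26*, *Arhgef19*, *Arhgap12* and *Arhgef10l* do not overlap between the genotypes.

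*Arhgap22* and *Arhgap24* encode related GAPs for RAC, the latter known as FilGAP for its binding to filamin. They held the largest positive and the largest negative log2 fold change of the tested members. The most similar 120 coding bases of the pair are shown to let their relation be seen, with capitals at the 18 bases that differ (85.0% identity). The *Arhgap22* stretch lies in exon 6 at chr14:33359173-33359292 and that of *Arhgap24* in exon 5 at chr5:102860385-102860504, both on the plus strand of GRCm38.
*Arhgap22*: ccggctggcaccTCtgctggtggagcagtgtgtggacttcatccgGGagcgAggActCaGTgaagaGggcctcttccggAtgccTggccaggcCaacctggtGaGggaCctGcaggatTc
*Arhgap24*: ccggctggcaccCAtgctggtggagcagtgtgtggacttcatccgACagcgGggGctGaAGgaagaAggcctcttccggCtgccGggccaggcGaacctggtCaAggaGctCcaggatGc
In this stretch the GC content was alike, 64.2% in *Arhgap22* and 65.8% in *Arhgap24*. The *Arhgap24* stretch and its exon number are those of a protein-coding transcript of 3346 bases with 50.2% GC, and not of the longest transcript of 4277 bases, which has 42.3%. For *Arhgap22* both are the same transcript, with 58.7%.

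*Arhgap22* had 4.0, 4.27 and 3.15 CPM in WT mice 1, 2 and 3 and 6.54, 5.92 and 5.42 CPM in Ube3am-/p+ mice 1, 2 and 3. All Ube3am-/p+ values were higher (log2 fold change 0.65, SE 0.23, adjusted p = 0.103, edgeR), on only 276 counts in the 6 libraries. *Arhgap24* had 7.54, 7.49 and 6.58 CPM in WT mice and 4.96, 4.77 and 5.51 CPM in Ube3am-/p+ mice 1, 2 and 3. All Ube3am-/p+ values were lower (log2 fold change -0.49, SE 0.20, adjusted p = 0.151, edgeR), on 333 counts. After the GC and length correction both kept their sign, with log2 fold changes of 0.43 (adjusted p = 0.418, edgeR) and -0.29 (adjusted p = 0.561, edgeR). The ratio of *Arhgap22* to *Arhgap24* was 0.531, 0.569 and 0.479 in mice 1, 2 and 3 of the WT genotype, against 1.32, 1.24 and 0.983 in the Ube3am-/p+ mice. This was the widest gap of the related pairs, 1.16 on the log2 scale and 0.72 between the corrected fold changes. Exons of *Gm15512*, a gene on the opposite strand that the counts do not list, cover 1429 bp (36.9%) of the *Arhgap22* exons, and the strand setting of the counting is not given in the sources used here, so that reads of both could have been counted as *Arhgap22*.

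*Arhgap12* and *Arhgap27* belong to another small RhoGAP family. *Arhgap12* was even among WT mice, with 111, 112 and 111 CPM, and had 100, 83.9 and 92.8 CPM in Ube3am-/p+ mice 1, 2 and 3. The lowest WT value stood above the highest Ube3am-/p+ value (log2 fold change -0.26, SE 0.09, adjusted p = 0.102, edgeR), and the corrected fold change was -0.01. *Arhgap27* had 21.8, 19.8 and 17.8 CPM in WT mice and 19.7, 21.2 and 25.5 CPM in Ube3am-/p+ mice, which overlapped (log2 fold change 0.18, adjusted p = 0.446, edgeR). *Arhgap15*, a RAC GAP of the same family, had 12.1, 14.4 and 19.5 CPM in WT mice and 15.2, 12.4 and 13.9 CPM in Ube3am-/p+ mice.

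Of the 6 listed RhoGAPs best known from dendritic spines and neuronal growth, 0 were without overlap and 0 had an unadjusted p below 0.05, beside 25.0% and 24.6% of all genes, which for 6 genes is no clear difference. *Arhgap44* (RICH2, a RAC GAP of spines) was the most even, with 161, 155 and 172 CPM in WT mice and 160, 161 and 170 CPM in Ube3am-/p+ mice (log2 fold change 0.03, SE 0.08, adjusted p = 0.872, edgeR). *Arhgap39* (Vilse) had 222, 190 and 169 CPM in WT mice and 193, 213 and 236 CPM in Ube3am-/p+ mice, so the genotypes interleaved. *Arhgap21*, a CDC42 GAP of the Golgi, had 298, 291 and 327 CPM in WT mice and 298, 277 and 221 CPM in Ube3am-/p+ mice. Its log2 fold change was -0.18 (adjusted p = 0.267, edgeR), and -0.15 after the correction, where its unadjusted p was 0.0444. *Arhgap23*, its closest relative, had 215, 175 and 151 CPM in WT mice and 198, 202 and 213 CPM in Ube3am-/p+ mice, with the highest value in WT mouse 1. *Arhgap32* (p250GAP, a GAP associated with NMDA receptors) had 181, 171 and 182 CPM in WT mice and 184, 167 and 119 CPM in Ube3am-/p+ mice, where mouse 3 had the lowest value. Its relative *Arhgap33* had 151, 122 and 107 CPM in WT mice and 133, 148 and 152 CPM in Ube3am-/p+ mice. The GRAF proteins, GAPs that bind curved membranes, showed 0 of 3 genes at an unadjusted p below 0.05, again no clear difference from the 24.6% of all genes. Among them *Arhgap26* had 88.5, 97.2 and 84.9 CPM in WT mice and 85.2, 82.6 and 67.9 CPM in Ube3am-/p+ mice, while *Arhgap10* and *Arhgap42* lay between 6.56 and 12.8 CPM in all mice.

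Among the RhoGEF genes the PIX pair was unlike in its values. *Arhgef6* (alpha-PIX, a RAC and CDC42 exchange factor in which mutations have been linked to intellectual disability) had 27.3, 28.4 and 34.8 CPM in WT mice 1, 2 and 3 and 27.7, 21.3 and 18.8 CPM in Ube3am-/p+ mice 1, 2 and 3. Mouse 1 of the Ube3am-/p+ genotype stood within the WT range and the others below it (log2 fold change -0.40, SE 0.15, adjusted p = 0.111, edgeR). After the correction the log2 fold change was -0.25 (SE 0.12, unadjusted p = 0.0441, adjusted p = 0.332, edgeR). *Arhgef7* (beta-PIX) had 151, 145 and 144 CPM in WT mice and 155, 142 and 149 CPM in Ube3am-/p+ mice, with a log2 fold change of 0.04 (SE 0.08, adjusted p = 0.804, edgeR). The *Arhgef7* to *Arhgef6* ratio was 5.52, 5.10 and 4.13 in mice 1, 2 and 3 of the WT genotype, against 5.58, 6.66 and 7.93 in the Ube3am-/p+ mice, without overlap but with the mice numbered 1 nearly equal.

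The ephexins, exchange factors that act below Eph receptors, included the gene of the reported UBE3A substrate. *Arhgef15* (ephexin-5) had 13.7, 14.1 and 9.19 CPM in WT mice 1, 2 and 3 and 10, 13.2 and 10.7 CPM in Ube3am-/p+ mice 1, 2 and 3. The genotypes overlapped, the lowest of all values being that of WT mouse 3, and the log2 fold change was -0.11 (SE 0.19, adjusted p = 0.762, edgeR). These counts measure mRNA and not the protein. *Arhgef26* (SGEF, an exchange factor for RHOG) had 69.3, 71.0 and 71.3 CPM in WT mice and 55.7, 57.4 and 61.7 CPM in Ube3am-/p+ mice, a narrow spread in both genotypes with a gap between them. Its log2 fold change was -0.26 (SE 0.09, adjusted p = 0.104, edgeR), and -0.23 after the correction (SE 0.09, adjusted p = 0.201, edgeR), the lowest adjusted p of any member there. Exons of *9330121J05Rik*, on the opposite strand and not listed in the counts, cover 2189 bp (21.6%) of its exons. *Arhgef19* (ephexin-2) had 22.9, 24.2 and 19.2 CPM in WT mice and 29.6, 27.5 and 25.0 CPM in Ube3am-/p+ mice, all higher (log2 fold change 0.32, SE 0.13, adjusted p = 0.136, edgeR), with a corrected log2 fold change of 0.06. *Arhgef5* lay between 3.00 and 6.03 CPM with overlap, and *Arhgef16* had too few counts to be tested.

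The RGS-domain RhoGEFs, which connect G12 and G13 proteins to RHOA, held 0 of 3 genes at an unadjusted p below 0.05. Beside 24.6% of all genes, this is no clear difference for 3 genes. *Arhgef11* (PDZ-RhoGEF) had 125, 127 and 114 CPM in WT mice and 134, 130 and 129 CPM in Ube3am-/p+ mice. The genotypes did not overlap, but the difference was small, with a log2 fold change of 0.12 (SE 0.08, adjusted p = 0.409, edgeR). *Arhgef12* (LARG) had 278, 305 and 314 CPM in WT mice and 321, 291 and 233 CPM in Ube3am-/p+ mice, and *Arhgef1* had 103, 84.1 and 80.9 CPM in WT mice and 101, 105 and 94.5 CPM in Ube3am-/p+ mice.

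The abundant RhoGEF *Arhgef25* had 435, 368 and 361 CPM in WT mice 1, 2 and 3 and 410, 478 and 552 CPM in Ube3am-/p+ mice 1, 2 and 3. WT mouse 1 stood above Ube3am-/p+ mouse 1, and the other 2 mice of each genotype were well apart (log2 fold change 0.33, SE 0.11, adjusted p = 0.0977, edgeR). The corrected log2 fold change was 0.16 (SE 0.08, adjusted p = 0.361, edgeR). *Arhgef2* had 230, 223 and 224 CPM in WT mice and 225, 204 and 230 CPM in Ube3am-/p+ mice, and *Arhgef4* 325, 305 and 299 against 305, 330 and 341 CPM, both with overlap. *Arhgef10l*, a RHOA exchange factor, had 40.3, 43.8 and 40.4 CPM in WT mice and 48.9, 54.2 and 49.0 CPM in Ube3am-/p+ mice, all higher (log2 fold change 0.31, SE 0.10, adjusted p = 0.0808, edgeR). After the correction it was 0.09 (adjusted p = 0.708, edgeR). Its relative *Arhgef10* had 71.9, 69.7 and 65.0 CPM in WT mice and 69.9, 73.2 and 64.4 CPM in Ube3am-/p+ mice, the same range. *Arhgef40* (Solo) had 26.5, 27.1 and 26.1 against 28.4, 29.8 and 28.7 CPM, without overlap, which was 0.14 on the log2 scale (adjusted p = 0.428, edgeR). *Arhgef17* had 409, 364 and 333 CPM in WT mice and 418, 399 and 428 CPM in Ube3am-/p+ mice, with overlap through WT mouse 1.

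The members' differences followed the GC content of their transcripts. Over the 51 tested members, Spearman's rho between GC content and log2 fold change was 0.76, and it was 0.76 over the RhoGAP and 0.777 over the RhoGEF genes. Among the 34 members with at least 1000 counts in the 6 libraries it was 0.903. The same relation held over 14201 tested genes, with a rho of 0.622, so it was not particular to the families. The members share libraries and are not independent, and these values are descriptions. With the members divided by GC content into 3 groups of 17, all 17 in the lowest group (33.9% to 49.6%) had a log2 fold change below 0, with a median of -0.18. They include *Arhgap5*, *Arhgap12*, *Arhgap24* and *Arhgef6*, and all 5 members that were lower at an unadjusted p below 0.05 (33.9% to 49.6% GC). *Arhgap24* stands in this group by its longest transcript, with 42.3% GC. The protein-coding transcript shown above has 50.2%, outside the range of the group. Over all genes in this range the median was -0.15, and 24.6% of them were higher. In the middle group 13 members were higher and 4 lower, with a median of 0.07 against 0.06 for all genes of that range. In the highest group (55.1% to 61.3%) 13 were again higher and 4 lower, with a median of 0.18 against 0.20 for all genes. The 4 members that were higher at an unadjusted p below 0.05 had 55.7% to 61.0% GC.

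**Figure D3:**
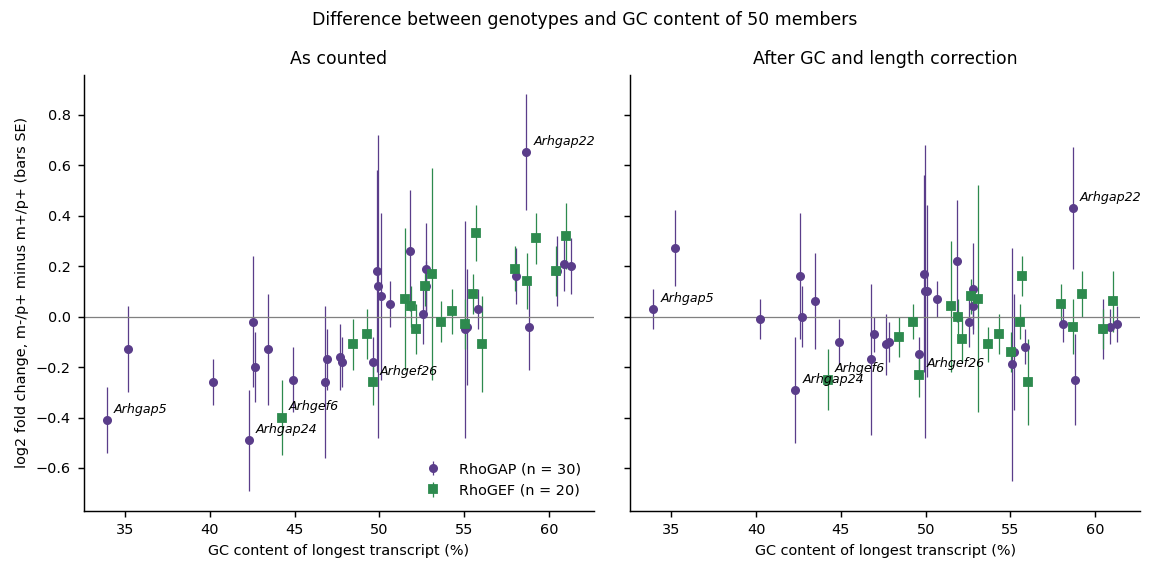
Log2 fold change of 50 of the 51 tested members (vertical axis, with SE) against the GC content of its longest transcript in percent (horizontal axis), as counted on the left and after the GC and length correction on the right. On the left the points climb from *Arhgap5* at -0.41 to the GC-rich members on the right edge (rho 0.76 over all 51), and on the right the slope has been removed by the correction itself, which fits GC content (rho -0.0534 over all 51).

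The relation was not equally strong in all mice of a genotype. Against the mean of the 6 mice, the members' deviations had a rho with GC content of -0.0628, -0.631 and -0.546 in WT mice 1, 2 and 3. In Ube3am-/p+ mice 1, 2 and 3 it was -0.118, 0.382 and 0.662. The mice numbered 1 of both genotypes thus stood near 0, while the other 2 mice of each genotype stood on opposite sides. For the members of the lowest group the median deviation was 0.06, 0.14 and 0.12 in the WT, against 0.08, -0.14 and -0.28 in the Ube3am-/p+ mice, so that Ube3am-/p+ mouse 1 lay on the side of the WT mice. Over all genes the rho was 0.0455, -0.506 and -0.571 in the WT, against 0.0588, 0.526 and 0.528 in the Ube3am-/p+ mice. As 2 mice of each genotype carry the gradient, it cannot be told apart from the genotype in these libraries.

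**Figure D4:**
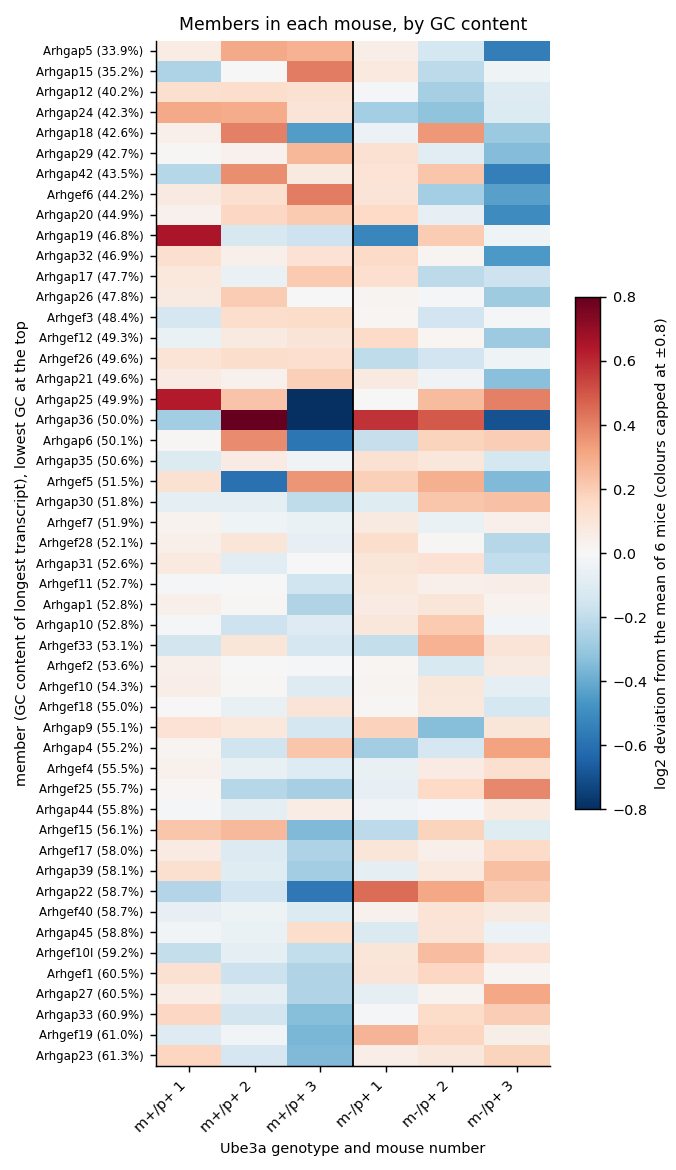
Log2 deviation of 50 of the 51 tested members from the mean of the 6 mice (red, higher; blue, lower; colours capped at 0.8 in either direction), with members in rows from the lowest (33.9%) to the highest (61.3%) GC content and mice in columns. Red passes to blue from top to bottom in WT mice 2 and 3, blue to red in Ube3am-/p+ mice 2 and 3, and neither in the mice numbered 1, where the rho over all 51 was -0.0628 and -0.118.

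After each library was corrected for GC content and transcript length, the median size of the members' log2 fold change went from 0.16 to 0.09, and that of all genes from 0.18 to 0.12. Of the members, 34 kept their direction and 17 turned. Only *Arhgef26*, *Arhgef6* and *Arhgap21* had an unadjusted p below 0.05, all with lower values in Ube3am-/p+ mice, beside 14.3% of all genes, and 0 members were differentially expressed, beside 0.706% of all genes. The adjusted p then lay between 0.201 and 0.994. With the correction and 1 mouse left out, which was added after seeing the data, 0 members were called in each case. All genes were called at 5.22% without WT mouse 1, 3.45% without Ube3am-/p+ mouse 1 and at most 0.109% without any of the others, so the last 4 cases bear little on the members.

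Ratios of related members within a mouse do not depend on the scaling of the library. Of 9 such pairs, 6 had ratios without overlap, each with an exact two-sided permutation p of 0.1 (0.15 after Benjamini-Hochberg adjustment over the 9), which cannot be lower with 3 mice against 3. The genotypes did not overlap in 25.0% of single genes, and the share among pairs of other genes was not computed, so the 6 are a description and not a property of the families. Besides the pairs above these were *Arhgef10l* to *Arhgef10*, *Arhgap27* to *Arhgap12* and *Arhgef19* to *Arhgef26*. For the last the ratio was 0.330, 0.341 and 0.269 in mice 1, 2 and 3 of the WT genotype, against 0.532, 0.479 and 0.405 in the Ube3am-/p+ mice. *Arhgap23* to *Arhgap21*, *Arhgap33* to *Arhgap32* and *Arhgef11* to *Arhgef12* overlapped. Each of the 9 pairs is written with the member of higher GC content in front, by 3.42 to 20.3 percentage points. That order is no result. Written so, the ratio was higher in Ube3am-/p+ mice by 0.20 to 1.16 on the log2 scale. After the correction the differences lay between -0.05 for *Arhgap27* to *Arhgap12* and 0.72 for *Arhgap22* to *Arhgap24*. The pairs were formed by relatedness, with the values known, and not all relatives were paired. The ephexins *Arhgef5* and *Arhgef15*, for example, had 51.5% and 56.1% GC and log2 fold changes of 0.07 and -0.11, the other way. The shared direction of the 9 is thus only a description of these pairs.

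**Figure D5:**
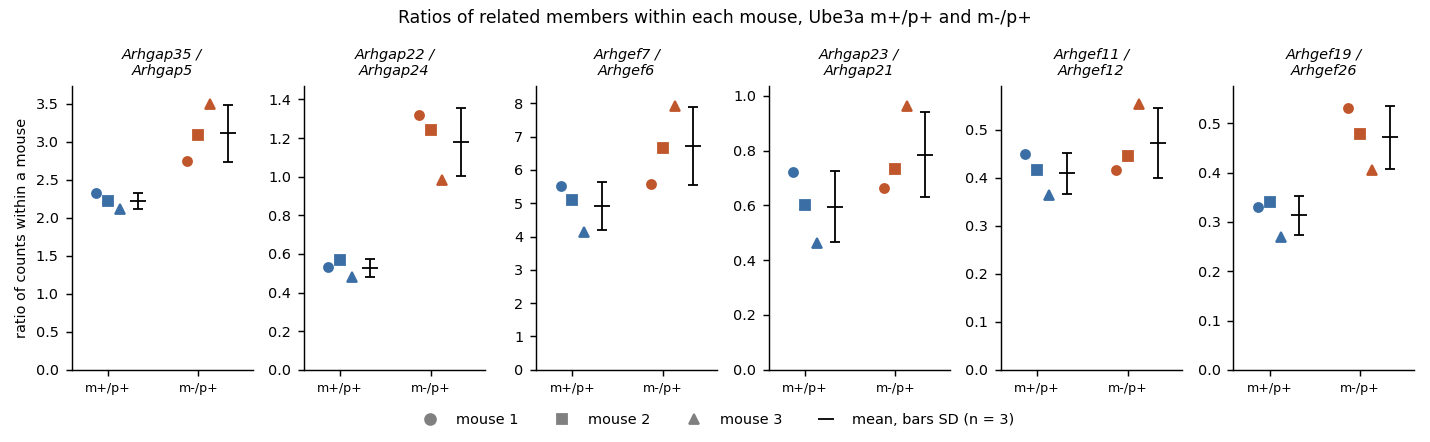
Ratio of the counts of 2 related members within each mouse (vertical axes from 0, no unit) for 6 pairs, with WT mice in blue, Ube3am-/p+ mice in orange and the mean and SD of 3 mice in black. The *Arhgap22* to *Arhgap24* ratio lies between 0.479 and 0.569 in WT mice and between 0.983 and 1.32 in Ube3am-/p+ mice, while the *Arhgap23* to *Arhgap21* and *Arhgef11* to *Arhgef12* ratios overlap.

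The 7 members left out of the test had 2 to 70 counts in the 6 libraries together. *Arhgap8* had 2 counts, *Arhgef38* 3, *Arhgap40* 16, *Arhgef16* 30, *Arhgap28* 42, *Arhgef39* 46 and *Arhgef37* 70, too few to compare the genotypes. Exons of other genes overlap those of 24 members, on the opposite strand in 21 of them. Besides *Arhgap22* and *Arhgef26* these include *Arhgap4*, with 2347 bp shared with *Avpr2*, *Arhgap6*, with 1335 bp shared with *Hccs*, and *Arhgef11*, with 991 bp shared with *Lrrc71*.

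Other genes of this signalling system were compared through the same fit. Of the 18 tested genes of these small GTPases 0 were differentially expressed and 6 had an unadjusted p below 0.05, 4 higher and 2 lower, beside 12.2% and 12.4% of all genes, with a median log2 fold change of -0.05. *Cdc42* had 251, 284 and 302 CPM in WT mice and 247, 235 and 235 CPM in Ube3am-/p+ mice (log2 fold change -0.20, adjusted p = 0.161, edgeR). Of the 3 RhoGDI genes, whose products hold these GTPases in the cytosol, 2 had higher values in every Ube3am-/p+ mouse, beside 10.8% of all genes. These were *Arhgdia* and *Arhgdig*, with 60.7% and 62.3% GC. *Arhgdig*, with 24.3, 24.6 and 24.4 CPM in WT mice and 27.8, 36.6 and 35.5 CPM in Ube3am-/p+ mice, reached 0.47 in log2 fold change (adjusted p = 0.0543, edgeR), and 0.08 after the correction. *Arhgdia* reached 0.27 (adjusted p = 0.0787, edgeR), and -0.02 after the correction. Among 25 RhoGAP genes outside the pattern, *Arhgap11a* included, 0 were differentially expressed. The 6 at an unadjusted p below 0.05 were all lower, beside 12.4% of all genes. They had 42.3% to 49.4% GC, within the range of the lowest GC group, where 24.6% of all genes were higher. After the correction 3 of the 25 had an unadjusted p below 0.05, beside 14.3% of all genes. Among 34 exchange factors of the same Dbl class named otherwise 2 fell, beside 0.99% of all genes. *Prex2*, a RAC exchange factor, had 71.9, 79.1 and 87.2 CPM in WT mice and 58.6, 52.0 and 47.2 CPM in Ube3am-/p+ mice (log2 fold change -0.58, SE 0.10, adjusted p = 0.0362, edgeR). *Fgd4*, a CDC42 exchange factor, had 42.6, 51.6 and 49.4 CPM in WT mice and 37.9, 31.5 and 30.6 CPM in Ube3am-/p+ mice (log2 fold change -0.51, SE 0.11, adjusted p = 0.0387, edgeR). After the correction their log2 fold changes were -0.29 and -0.13 (adjusted p = 0.0722 and 0.549, edgeR). The 11 DOCK exchange factors and the 29 effectors of the GTPases held 0 differentially expressed genes, with 1 and 7 at an unadjusted p below 0.05 (9.09% and 24.1%, beside 24.6% of all genes). Among the effectors *Rock1*, a kinase activated by RHOA, had the lowest log2 fold change, -0.51 (adjusted p = 0.0534, edgeR), and -0.24 after the correction. Of the cell type markers *Col1a1* of meninges was higher (log2 fold change 0.73, adjusted p = 0.0416, edgeR) and *Pdgfra* of oligodendrocyte precursors lower (log2 fold change -0.43, adjusted p = 0.0466, edgeR) in Ube3am-/p+ mice. All 8 meninges markers had a log2 fold change above 0, with a median of 0.31 as counted and 0.19 after the correction. The 6 choroid plexus markers were also all above 0, with a median of 0.46 and 0 at an unadjusted p below 0.05. The precursor markers did not move together as counted. *Sox10* was higher in every Ube3am-/p+ mouse (log2 fold change 0.31, adjusted p = 0.0638, edgeR), and *Olig1*, *Gpr17* and *Cspg4* had 0.02, -0.07 and -0.05. With the correction, 1 of the 5 precursor markers had a log2 fold change above 0. After the correction the log2 fold changes were 0.55 for *Col1a1*, which lost its call, and -0.36 for *Pdgfra*, which kept it (adjusted p = 0.0742 and 0.0448, edgeR), and the oligodendrocyte marker *Mobp* gained a call at -0.33 (adjusted p = 0.0411, edgeR). As counted, 0 markers of hippocampal neurons, choroid plexus, endothelium, microglia, astrocytes or oligodendrocytes were differentially expressed, with 0 to 3 genes of each list at an unadjusted p below 0.05. The 3 of 6 oligodendrocyte markers at that threshold were all lower in Ube3am-/p+ mice, beside 12.4% of all genes in that direction. The rest of that list, *Mag*, *Cnp* and *Mbp*, had log2 fold changes of 0.16, 0.09 and 0.02. After the correction these were -0.05, -0.05 and 0.0.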

How the data were processed

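The authors deposited raw counts per gene symbol for each mouse in htseq-count layout, without normalization or pooling. The submitters' processing notes name STAR 2.7.4a, HTSeq and mm10, while the annotation and strand setting are not given in the sources used here. Between 39.0% and 41.8% of the reads listed lay on genes and 54.1% to 55.0% on no gene, and such summary lines were dropped. The share on genes was 40.57%, 39.03% and 39.04% in WT mice 1, 2 and 3. In Ube3am-/p+ mice 1, 2 and 3 it was 40.85%, 41.27% and 41.78%. Its relation to the GC gradient was not tested. Chi-square per degree of freedom between libraries of a genotype was 3.95 to 10.1, more than counting noise gives.

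In R 4.3.3, genes kept by filterByExpr were scaled by TMM and tested by edgeR 4.0.16 (robust quasi-likelihood F test, two-sided, genotype only, biological coefficient of variation 0.102), with Benjamini-Hochberg adjustment over 14445 genes. Differential expression required both an adjusted p below 0.05 and more than 1.2-fold change. Log2 fold changes are Ube3am-/p+ minus WT, and p-values measure only the spread between these 6 mice. Permutation tests used log2(CPM + 0.5). For the GC and length correction, the deviation of each library from the mean of the 6 was fitted by natural splines (5 degrees of freedom) on both properties and the fit removed. Both came from the longest transcript in GENCODE M21, on GRCm38, known for 14201 genes (98.3%). Alternatives were DESeq2 1.42.0, other scaling and filters, the replicate number as a block, the correction, and each mouse left out. The steps were tested on simulated data. The members, pairs and gene lists were chosen with earlier results of these data known. Named members were those without overlap (at most 8 in each direction), the 5 highest per kb of each family, those in fixed role lists, and *Arhgap5*, and others are named as relatives of these. The values of 1 member covered by this rule are not reported here, while the counts and summaries include it. Primer sequences came from the study's supplementary table.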

Additional observations from a re-analysis of the deposited data

How the results depend on the processing

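The number of differentially expressed members, 0 in the comparison reported (2.01% of all genes), was 1 with DESeq2 (8.58%) and 2 without a filter on low counts (6.1%). It was 13 without both mice numbered 1 (28.3%). At an unadjusted p below 0.05 with the same fold threshold it was 7, for which the share of all genes is not given here. With 1 mouse left out the number of differentially expressed members ran from 0 to 7. Members at an unadjusted p below 0.05 numbered 9 as reported (17.6%, beside 24.6% of all genes), 3 with the GC and length correction (5.88%, beside 14.3%), 1 with the correction and the replicate block (1.96%, beside 11.4%), 21 without both mice numbered 1 (39.6%, beside 41.4%), and 5 to 15 with 1 mouse left out (10% to 30.6%, beside 14.2% to 32.5%). The counts thus moved along with those of all genes. Members without overlap ran from 9 to 20 with 1 mouse left out and were 6 after the correction. Of all genes 25.0% did not overlap as reported, 50.1% without WT mouse 1 and 47.6% without Ube3am-/p+ mouse 1. For the other cases and the correction this share is not given here, so those counts say nothing of the members. The median log2 fold change of the RhoGAP genes ran from -0.11 to 0.01 with 1 mouse left out. That of the RhoGEF genes, 0.04, was -0.02 with the correction, with or without the block. The rho with GC content, 0.76, was -0.0534 with the correction and -0.0471 with the block added, which follows from the correction's own construction, as it removes a fit on GC content.

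Of the 31 named members, 11 turned direction with the correction, to 0.03 for *Arhgap5*, -0.04 for *Arhgef40*, -0.03 for *Arhgap39*, -0.12 for *Arhgap44*, -0.03 for *Arhgap23*, -0.04 for *Arhgap33*, -0.02 for *Arhgef4*, 0.27 for *Arhgap15*, -0.07 for *Arhgef10*, -0.05 for *Arhgef1* and 0.06 for *Arhgap42*. With the block added the values were the same except for *Arhgap23* (-0.02), *Arhgap33* (-0.03), *Arhgap42* (0.05) and *Arhgef7*, which turned to -0.01. Without both mice numbered 1, *Arhgef15* turned to 0.05 and *Arhgap35* to -0.04. With 1 mouse left out, the members that turned direction in at least 1 case ranged from -0.01 to 0.06 for *Arhgap44*, -0.18 to 0.27 for *Arhgef5*, -0.28 to 0.08 for *Arhgap42*, -0.27 to 0.07 for *Arhgap15*, -0.02 to 0.07 for *Arhgef10*, -0.06 to 0.04 for *Arhgef2* and -0.16 to 0.05 for *Arhgef12*. The cause of these changes was not tested. Other scaling factors, the filter of at least 10 counts in every library and the block alone turned 0 of the 31.

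With the replicate number as a block, 0 members and 0 of all genes were differentially expressed, and 8 members (15.7%) had an unadjusted p below 0.05, beside 16.8% of all genes, so the 0 says nothing of the members. The labels name no pairing, and the deviations of same-numbered mice correlated at -0.285, -0.177 and -0.311, so the numbers were not taken to pair the mice. The comparisons that leave out both mice numbered 1, or a mouse with the correction, were added after seeing the data. With 3 mice per genotype no single-gene permutation test can pass 0.05, and members of few counts, such as *Arhgap36*, allow only wide errors.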
